A study of Mus musculus with 4 samples.

Results

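Immediate early genes are transcribed within minutes of a growth or stress signal, without new protein synthesis, and in liver they mark the priming phase that precedes DNA replication after tissue loss. The set described here held Jun, Fos, Egr1, Ier2, Ier3, Btg2, Atf3, Klf6, Myc and Id1. Every probe that the array platform's annotation assigns to one of these symbols was taken, which gave 12 probes of 10 genes among 45281 probes and 19057 named genes. Klf6 and Myc had more than 1 probe each.

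Liver RNA came from Med1 floxed mice (Med1fl/fl) on a C57BL6/J background, 5.5 weeks old, that received an adenovirus by tail vein. Ad-Med1 carried Med1 with a His tag (Ad-His-Med1), and Ad-LacZ, the control, carried the gene of the bacterial enzyme beta-galactosidase. Livers were taken 3 or 5 days later, which gave 4 groups with 1 array each. All 4 groups share the floxed Med1 allele, and the labels name no Cre recombinase. Each group also received a virus, so that no array shows uninfected liver, and the labels do not say whether an array holds 1 animal or a pool. Med1 belongs to Mediator, which links transcription factors to RNA polymerase II, and the series title names cell proliferation as the subject.

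In regenerating liver, cytokines such as tumour necrosis factor and interleukin 6, together with growth factor signals through MAP kinases, act on transcription factors already present in hepatocytes, which then switch on Jun, Fos, Egr1, Atf3, Klf6 and Myc. Jun and Fos proteins pair to form AP-1. Egr1 is a zinc finger factor, Ier3 a short-lived protein that modulates survival signals, Btg2 an antiproliferative partner of the mRNA deadenylation machinery, and Id1 an inhibitor of basic helix-loop-helix factors that responds to BMP signals. The RNAs decay fast, so that their level follows recent signalling, handling of the animal included.

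Promoters from the RefSeq table of GRCm38.p6 are shown for 4 of the members that were at least 2-fold higher after Ad-Med1 at day 5. They are shown because the genes are known in general as targets of signal-driven factors that bind close to the start. Each line gives the 250 bases before the start, 5′ to 3′ on the gene's strand. Capitals mark the ATF and CREB type motifs TGACNTCA, TNACGTCA and TGACGT and the TATA box TATAAA, each searched on both strands.
Jun, chr4:95052223-95052472, minus strand: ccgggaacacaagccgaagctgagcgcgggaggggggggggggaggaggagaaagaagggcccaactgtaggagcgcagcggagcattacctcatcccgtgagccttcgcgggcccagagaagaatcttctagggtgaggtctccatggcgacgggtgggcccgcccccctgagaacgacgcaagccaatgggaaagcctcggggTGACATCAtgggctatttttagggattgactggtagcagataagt
Fos, chr12:85473640-85473889, plus strand: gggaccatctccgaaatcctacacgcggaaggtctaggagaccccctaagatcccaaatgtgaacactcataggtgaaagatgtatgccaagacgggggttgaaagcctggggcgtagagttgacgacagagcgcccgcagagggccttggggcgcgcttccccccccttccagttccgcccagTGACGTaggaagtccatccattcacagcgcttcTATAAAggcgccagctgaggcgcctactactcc
Atf3, chr1:191183334-191183583, minus strand: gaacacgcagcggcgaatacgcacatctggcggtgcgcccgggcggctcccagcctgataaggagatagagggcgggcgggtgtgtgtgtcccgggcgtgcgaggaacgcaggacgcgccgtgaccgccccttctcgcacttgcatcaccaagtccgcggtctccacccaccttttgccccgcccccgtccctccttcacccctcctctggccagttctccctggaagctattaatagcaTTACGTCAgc
Ier3, chr17:35821463-35821712, plus strand: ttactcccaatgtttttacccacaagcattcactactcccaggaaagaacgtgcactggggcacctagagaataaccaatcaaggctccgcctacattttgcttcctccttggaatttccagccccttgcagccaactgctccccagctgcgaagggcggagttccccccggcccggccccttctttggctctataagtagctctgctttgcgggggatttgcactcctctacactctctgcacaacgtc

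The Jun promoter held TGACATCA at 45 to 38 bases before the start. In Fos, TGACGT lay 66 to 61 bases and TATAAA 33 to 28 bases before the start. Atf3 had TTACGTCA at 10 to 3 bases before it. The Ier3 window held none of the marked motifs. Of 32851 promoters of this length in the table, 7.49% held TGACNTCA, 2.52% TNACGTCA, 6.47% TGACGT and 12.4% TATAAA. The motif TGACGT lies within the sequences that TNACGTCA matches, so these shares overlap. The AP-1 motif TGANTCA was found in 6.75% of all promoters and in none of the 6 member promoters searched. The serum response element (CArG box) was found in 1.47% and also in none. Sites more than 250 bases before the start were not searched, so an absence holds for this window only. The kappaB consensus matched Fos and Ier3, against 7.25% of all promoters. Btg2 and Klf6 were also searched, with TGACNTCA in both, while promoters of Egr1, Ier2, Myc and Id1 were not among those searched. The motifs were chosen with the sequences in view, and a match is only a description of these letters.

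Facts of the whole series bear on every value below. Ad-Med1 arrays were brighter, with mean intensities of 925 (day 3) and 968 (day 5), where Ad-LacZ had 350.2 and 475, and they detected 14752 and 15294 probes against 12899 and 14062. Med1 itself was higher after Ad-Med1: its probe ILMN_2658227 had a normalised signal of 11.16 at day 3 and 12.22 at day 5, and lay below detection on both Ad-LacZ arrays. The probe ILMN_1220563 differed by 0.20 (log2) at day 5. Hepatocyte markers were present in every group, with 10 to 11 of 13 detected. Sex-linked transcripts differed between arrays. The brightest probe of Xist, the RNA of the inactive X chromosome, had a normalised signal of 11.17 in Ad-Med1 at day 3 and 9.51 at day 5. In Ad-LacZ it had 8.15 at day 5 and was not detected at day 3. The other detected Xist probes were higher in Ad-Med1 at day 3 and lower at day 5, most of them by far more than 2-fold. The Y-linked Eif2s3y stood at 9.52 in Ad-LacZ at day 3 and 10.54 in Ad-Med1 at day 5, and was not detected on the other arrays. Virus and these transcripts therefore cannot be told apart within a day. Eif2s3y and the other Xist probes changed direction between the days, in opposite senses. The same limit therefore holds for a virus difference that changed between the days.

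Signals are given after background correction and quantile normalisation, on a log2 scale, and a difference is Ad-Med1 minus Ad-LacZ unless stated. Detection means a detection p under 0.01, and a gene was assessed in a comparison when 1 or both of the arrays compared detected its probe. Of the 10 genes, 5 were detected on every array, namely Jun, Egr1, Ier3, Klf6 and Id1. Fos was detected on all arrays except Ad-LacZ at day 3, and Atf3 only in Ad-Med1 at day 5. Ier2, Btg2 and Myc, with 4 probes in all, were not well above background anywhere. A gene was called different at 2-fold or more, and with 1 array per group no difference at a day has a replicate check.

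At day 5, 5 of the 7 assessed members were at least 2-fold higher after Ad-Med1 and 0 lower, where 10.2% of the 9261 genes assessed were higher and 7.68% lower. They were Jun, Fos, Egr1, Ier3 and Atf3, the last against a control signal below detection. At day 3, 1 of 6 was higher (Id1) and 0 lower, where 17.4% of 9052 genes were higher and 12% lower. No member was called on both days, where 3.45% of the genes assessed were higher and 3.42% lower on both. The day 3 count is near the share of all genes and shows nothing about the set.

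**Figure D1:**
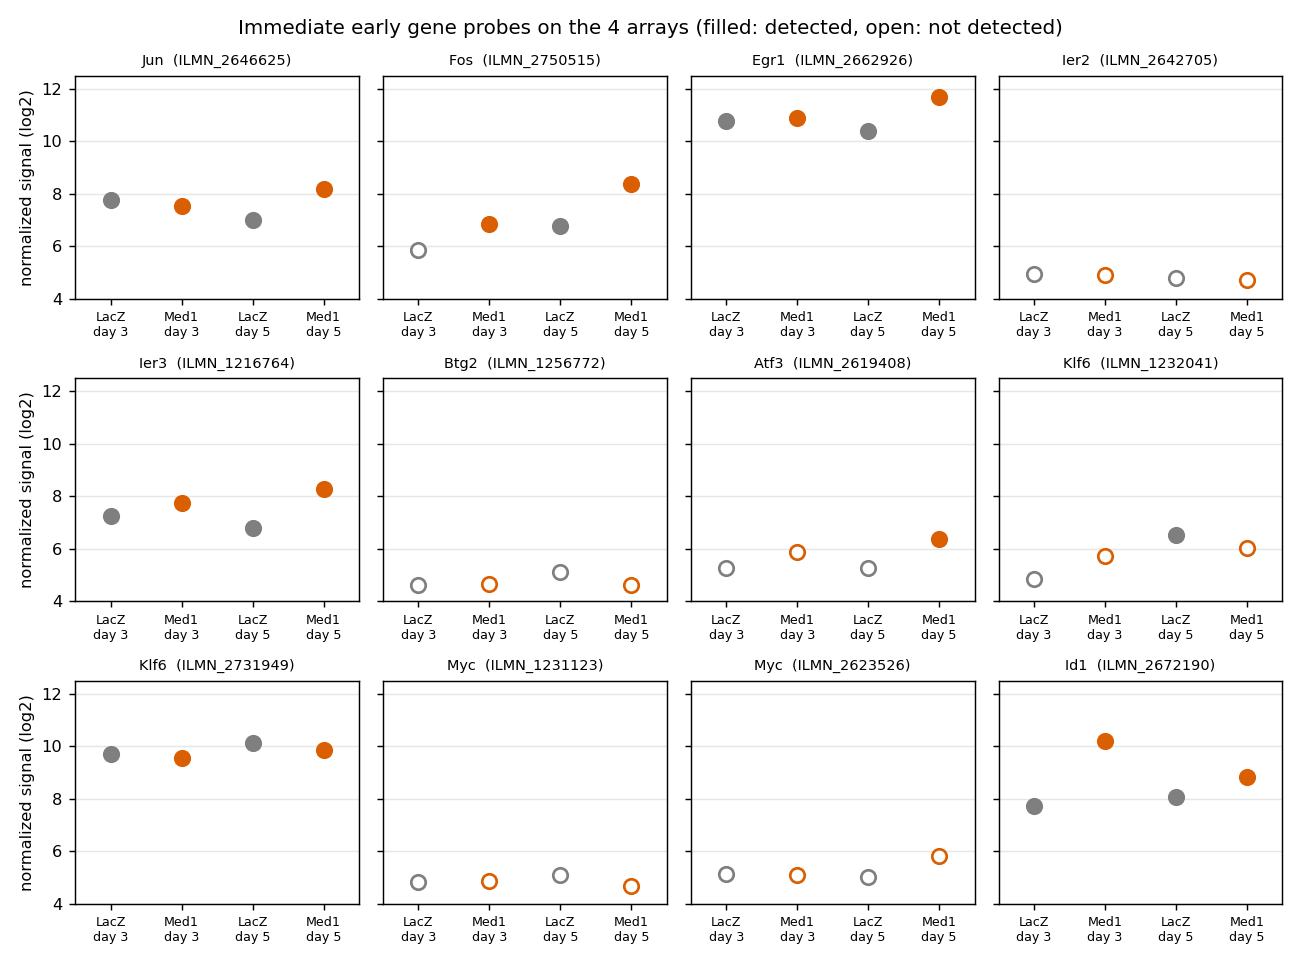
Normalised log2 signal of each of the 12 probes (y axis) on the 4 arrays (x axis, 1 point per array, grey for Ad-LacZ and orange for Ad-Med1, open where the probe was not detected). Fos, Egr1, Jun, Ier3 and Atf3 have their highest point on the Ad-Med1 array of day 5, and Id1 on that of day 3, while the Ier2, Btg2 and Myc probes are open on all 4 arrays.

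Fos, the AP-1 subunit whose RNA is among the shortest-lived, had signals of 6.84 in Ad-Med1 and 5.85 in Ad-LacZ at day 3, and of 8.39 and 6.78 at day 5. The day 3 Ad-LacZ value was below detection, which leaves an excess of at least 1.05-fold there. At day 5, where both arrays detected it, Fos was 3.05-fold higher (log2 difference 1.61), above 96.8% of the genes assessed. The Ad-Med1 array of day 5 stood apart from the other 3 arrays. It was 2.93-fold above the Ad-Med1 array of day 3.

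Jun, the partner of Fos in AP-1, had 7.55 in Ad-Med1 and 7.76 in Ad-LacZ at day 3, and 8.20 and 7.01 at day 5. The difference was -0.20 at day 3 and 1.19, or 2.29-fold, at day 5. On this scale both arrays contributed to the wider gap at day 5: Ad-Med1 was 1.56-fold higher at day 5 than at day 3, and Ad-LacZ was 1.68-fold lower. The size of the Ad-LacZ part depended on the processing, with log2 differences of day 5 minus day 3 from -0.75 to -0.15. Against the Ad-LacZ array of day 3, Ad-Med1 at day 5 was only 1.36-fold higher. With intensities set only against each array's median the day 3 difference of Jun was 0.82, where the median gene assessed stood at 1.0. With that median difference taken off, it was -0.19.

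Atf3, a stress-induced factor of the ATF and CREB family that binds AP-1 and CRE sites, was detected on a single array. Its signals were 5.87 in Ad-Med1 and 5.27 in Ad-LacZ at day 3, and 6.39 and 5.27 at day 5. The day 5 difference of 1.11 has an Ad-LacZ value below detection, and the detection floor of that array, a signal of 6.41, lies above the Atf3 value in Ad-Med1, so that no fold is given. With undetected signals set to that floor the difference was -0.025. Without Atf3, 4 of the 5 called members remained, each detected on both arrays of day 5. In Ad-LacZ at day 5, however, Fos (6.78), Ier3 (6.81) and Jun (7.01) lay close above the floor of 6.41, and only Egr1 (10.41) lay far above it. Without background correction the day 5 differences were 0.93 for Fos, 0.84 for Ier3 and 0.69 for Jun, each under 2-fold.

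Egr1, the zinc finger factor induced by MAP kinase signals, had 10.89 in Ad-Med1 and 10.79 in Ad-LacZ at day 3, and 11.69 and 10.41 at day 5. It was 1.08-fold higher at day 3 and 2.43-fold higher at day 5, above 94.3% of the genes assessed on the later day. As for Jun, the 4 arrays ran from Ad-LacZ at day 5, the lowest, to Ad-Med1 at day 5, the highest. The Ad-Med1 array of day 5 exceeded the Ad-LacZ array of day 3 by 1.87-fold, short of the 2-fold threshold.

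Ier3 had 7.75 in Ad-Med1 and 7.27 in Ad-LacZ at day 3, and 8.28 and 6.81 at day 5. It was 1.39-fold higher at day 3 and 2.78-fold higher at day 5. Ier3 kept the same direction on both days, and its Ad-Med1 array of day 5 was also 2.01-fold above the Ad-LacZ array of day 3. The Ier3 arrays were in the order Ad-LacZ day 5, Ad-LacZ day 3, Ad-Med1 day 3 and Ad-Med1 day 5, with both control arrays below both Ad-Med1 arrays.

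Id1 had 10.22 in Ad-Med1 and 7.73 in Ad-LacZ at day 3, and 8.81 and 8.06 at day 5. At day 3 Ad-Med1 was 5.64-fold higher, above 96.0% of the genes assessed. At day 5 it was 1.68-fold higher, above 83.5% of them. Within Ad-Med1, Id1 was 2.66-fold lower at day 5 than at day 3, while the Ad-LacZ arrays differed by 1.26-fold with day 5 higher. Both Ad-Med1 arrays lay above both Ad-LacZ arrays, and with the control arrays exchanged the differences were 4.47-fold at day 3 and 2.13-fold at day 5. Of the members, Id1 was thus the one higher at day 3 and Fos the one 2-fold higher at day 5 when the Ad-Med1 arrays were set against each other, where 5.02% of 9267 genes were higher at day 5 and 2.91% lower. Within Ad-LacZ no member differed by 2-fold between the days, where 12.1% of 8603 genes were higher at day 5 and 6.47% lower.

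Klf6, a zinc finger factor of the Krüppel-like family, had signals on its brighter probe ILMN_2731949 of 9.56 in Ad-Med1 and 9.73 in Ad-LacZ at day 3, and of 9.86 and 10.12 at day 5. The differences were -0.17 and -0.27. The second probe, ILMN_1232041, was detected only in Ad-LacZ at day 5, at 6.53, where it exceeded Ad-Med1 by at least 1.36-fold. Klf6 was the one detected member whose signal was not higher after Ad-Med1 at day 5. This direction turned with intensities set only against each array's median, which gave 1.24 at day 3 and 0.91 at day 5. The median gene assessed was itself 1.0 and 0.83 higher on that scale.

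Ier2, a small nuclear protein of the early growth response, had signals between 4.72 and 4.93 over the 4 arrays. Btg2 lay between 4.61 and 5.10. The Myc probes, for the basic helix-loop-helix factor that drives ribosome production and cell growth, lay between 4.68 and 5.10 for ILMN_1231123 and between 5.01 and 5.82 for ILMN_2623526. The lowest signals counted as detected were 6.09 to 6.78 on the 4 arrays, so that differences of these genes were not detectable and no fold is given.

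The intensities before normalisation set the scale of these statements. Every one of the 12 member probes was brighter after Ad-Med1 on both days, but so were most genes: the median gene assessed was 3.26-fold brighter at day 3 and 2.90-fold at day 5. Fos had intensities of 288 and 103 at day 3 and of 690 and 131 at day 5 for Ad-Med1 and Ad-LacZ. Egr1 had 3082 and 687 at day 3 and 5366 and 649 at day 5, an excess of 4.49-fold and 8.27-fold. Both were brighter than the median gene at day 5, whereas Fos at 2.80-fold was below it at day 3. Id1 had 2035 and 142 at day 3 and 882 and 188 at day 5, an excess of 14.3-fold and 4.68-fold. Jun had 410 and 143 at day 3 and 623 and 138 at day 5, so that the Ad-LacZ intensities were nearly equal and the Ad-Med1 array of day 5 was the brightest. Ier3 followed the same order on Ad-Med1, with 456 and 127 at day 3 and 650 and 132 at day 5. Klf6, at 1331 and 347 and then 1665 and 543, exceeded Ad-LacZ 3.84-fold and 3.07-fold, close to the median gene. Atf3, at 199 and 95.8 and then 262 and 102, was 2.08-fold and 2.56-fold brighter, less than the median gene on both days.

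When the intensities were set against each array's median and the median difference of all genes assessed was then taken off, a choice made after seeing the data, the day 5 differences were 1.51 for Egr1, 0.86 for Fos, 0.77 for Ier3, 0.69 for Id1 and 0.64 for Jun. Atf3 stood at -0.18. On this scale 1 member (Egr1) was at least 2-fold higher at day 5, compared with 5 after normalisation, and the same count of 1 (again Egr1) was found without background correction. Id1 at day 3 was called on all of these scales, at 1.95 without background correction and 2.13 on the median scale less the shift. Fos, Egr1, Ier3, Jun and Id1 lay above the median gene at day 5 on each of these scales, so that the scale moved their size and the count past 2-fold, not that direction.

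**Figure D2:**
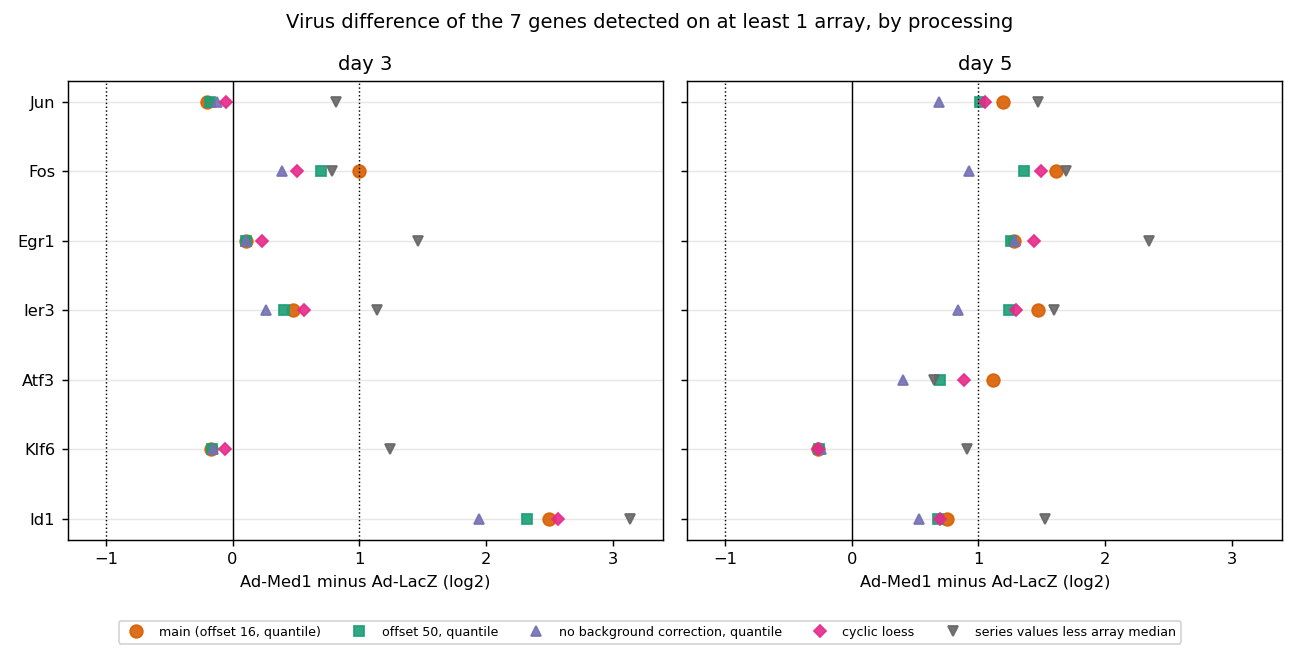
Log2 difference Ad-Med1 minus Ad-LacZ (x axis) of the 7 detected members (y axis) at day 3 (left) and day 5 (right) under 5 ways of processing, shown by colour and shape, with dotted lines at 2-fold. Atf3 is not drawn at day 3, where neither array detected it. Id1 lies right of the 2-fold line at day 3 in each of the 5, and Egr1 does so at day 5.

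Over both days, limma's moderated test, fitted to the 4 arrays with terms for virus and day, called 0 of 16767 probes at an adjusted p under 0.05, although 2317 probes (13.8%) had an unadjusted p under 0.05. The test sets the virus effect against a variance with 2 parts. These are the effect's own change between days, with 1 residual degree of freedom, and a prior from all probes, with 2.95. Its largest effect among members was 1.62 ± 0.55 (log2, SE) for Id1, with a limma adjusted p of 0.352. Fos had 1.30 ± 0.36 with a limma adjusted p of 0.345, and Ier3 0.98 ± 0.41 with 0.381. Both were higher after Ad-Med1 on 2 of 2 days, as were Id1 and Egr1, although the Fos control of day 3 was below detection. Egr1 had 0.69 ± 0.44 with a limma adjusted p of 0.488. Jun, whose direction differed between days, had 0.49 ± 0.48 with a limma adjusted p of 0.633. Atf3 stood at 0.86 ± 0.35 and Klf6 at -0.22 ± 0.33, with limma adjusted p-values of 0.376 and 0.761. No member passed, and the day effect likewise called 0 probes in limma, with 286 (1.71%) at an unadjusted p under 0.05. With intensities set only against each array's median, limma called 7819 probes, and Jun, Fos, Egr1, Ier3, Klf6 and Id1 passed there with adjusted p-values between 0.020 and 0.034. On that scale the median gene assessed was itself 1.0 (log2) higher after Ad-Med1 at day 3 and 0.83 at day 5, compared with -0.03 and 0.07 after quantile normalisation.

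**Figure D3:**
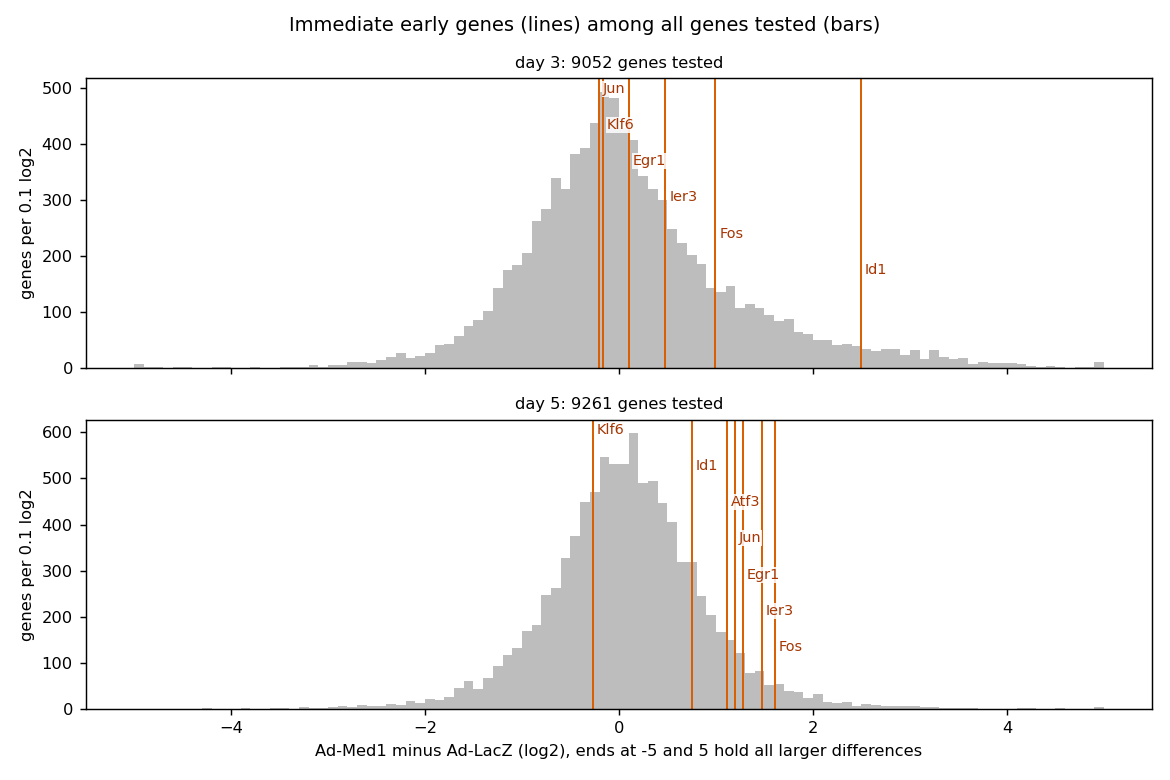
Histogram of the log2 difference Ad-Med1 minus Ad-LacZ of all genes assessed (x axis, in steps of 0.1; y axis, genes per step) at day 3 (top) and day 5 (bottom), with a line for each assessed member. At day 3 the lines spread over the middle of the histogram with Id1 at 2.50, and at day 5 the lines of Atf3, Jun, Egr1, Ier3 and Fos lie between 1.11 and 1.61.

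The position of each array was examined next, as a count made after the data were seen. Of the 7 members assessed at day 5, 5 had their highest signal of the 4 arrays in Ad-Med1 at day 5, where 23.4% of 9261 genes did so. Jun, Egr1 and Ier3 also had their lowest signal in Ad-LacZ at day 5, which 27% of genes did. On the normalised scale the control array of day 5 thus entered the gap for these 3 genes, by an amount that depended on the processing. Its log2 difference from the Ad-LacZ array of day 3 ranged from -0.75 to -0.15 for Jun. For Egr1 it ranged from -0.44 to -0.17, and for Ier3 from -0.46 to -0.04. Against the Ad-LacZ array of day 3, 4 members were at least 2-fold higher in Ad-Med1 at day 5, where 18.1% of 9218 genes were higher and 11.7% lower. Those were Fos, Ier3, Id1 and Atf3, the last with no fold above the detection floor of that control array, so that 3 remained with undetected signals set to it. Jun and Egr1 reached 2-fold against the control of their own day and not against that of day 3. Against the Ad-LacZ array of day 5, 1 member (Id1) was higher in Ad-Med1 at day 3 and 0 lower, where 9.26% of 9079 genes were higher and 6.64% lower. With 1 array per group there is no spread by which to judge neighbours in these orders.

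Other immediate early genes were described in the same way. For this list and those below, 17.4% of all genes assessed were higher and 12% lower at day 3. At day 5 the shares were 10.2% higher and 7.68% lower. Of 28 assessed at day 3, 6 were at least 2-fold higher and 8 lower, with a median difference of -0.40 against -0.03 for all genes. Of 32 assessed at day 5, 17 were higher and 0 lower, with a median of 1.16 against 0.07 for all genes. With undetected signals set to the detection floor, 4 were higher and 7 lower at day 3, and 13 higher and 0 lower at day 5. With the Ad-LacZ array of day 3 as the control of day 5, 9 of 31 were higher and 6 lower. Of all genes, 18.1% were higher and 11.7% lower in that comparison. With intensities set only against each array's median, 9 were higher and 1 lower at day 3, and 22 higher and 0 lower at day 5. On that scale the median gene assessed was itself 1.0 (log2) higher at day 3 and 0.83 at day 5. The median signal of the 40 genes with a probe was 7.95 on both arrays of day 3, 8.34 in Ad-Med1 at day 5 and 7.06 in Ad-LacZ at day 5, so that the list was low on the latter array as well as high on the former.

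Per1, a clock gene that glucocorticoids and other signals induce acutely, had signals of 10.32 in Ad-Med1 and 9.26 in Ad-LacZ at day 3, and of 10.74 and 6.51 at day 5. It was 2.09-fold higher at day 3 and 18.7-fold higher at day 5, and its second probe gave 0.36 and 3.49 (log2). Per1 on the Ad-LacZ array of day 5 stood far below the other 3 arrays. Rhob, a small GTPase of the stress response, had 11.09 and 9.14 at day 3 and 11.50 and 9.50 at day 5. It was 3.89-fold and 3.99-fold higher, about the same on both days. Gadd45b, which acts in stress and MAP kinase signalling, had 7.12 and 7.50 in Ad-Med1, and both Ad-LacZ arrays missed it, which makes the excess at least 1.27-fold at day 3 and at least 2.12-fold at day 5. Slc20a1, a phosphate transporter, had 8.60 in Ad-Med1 at day 3, at least 3.55-fold above Ad-LacZ, which was not detected. At day 5 it had 8.38 and 7.08, a difference of 2.47-fold. These 4 genes had measured differences of at least 2-fold on both days, although the Gadd45b bound of day 3 lies under that size.

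Several genes of the list turned direction between the days, and these were picked after their values were seen. Zfp36, which binds AU-rich elements and speeds mRNA decay, had 9.88 in Ad-Med1 and 11.88 in Ad-LacZ at day 3, and 10.87 and 9.54 at day 5. It was 4.0-fold lower at day 3 and 2.51-fold higher at day 5. Ccn2, a matricellular protein, had 8.16 and 10.33 at day 3 and 9.37 and 7.98 at day 5, and Plk3, a stress-responsive kinase, 9.52 and 11.12, then 10.35 and 9.0. In each of these 3 genes the Ad-LacZ array of day 3 was the highest of the 4 and that of day 5 the lowest, and each kept its directions with intensities set only against each array's median. Cebpb, a liver-enriched bZIP factor of regeneration, had 13.62 and 13.38 at day 3 and 13.88 and 12.23 at day 5, a difference of 3.13-fold at day 5. Its 4 signals kept the order seen for Egr1.

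**Figure D4:**
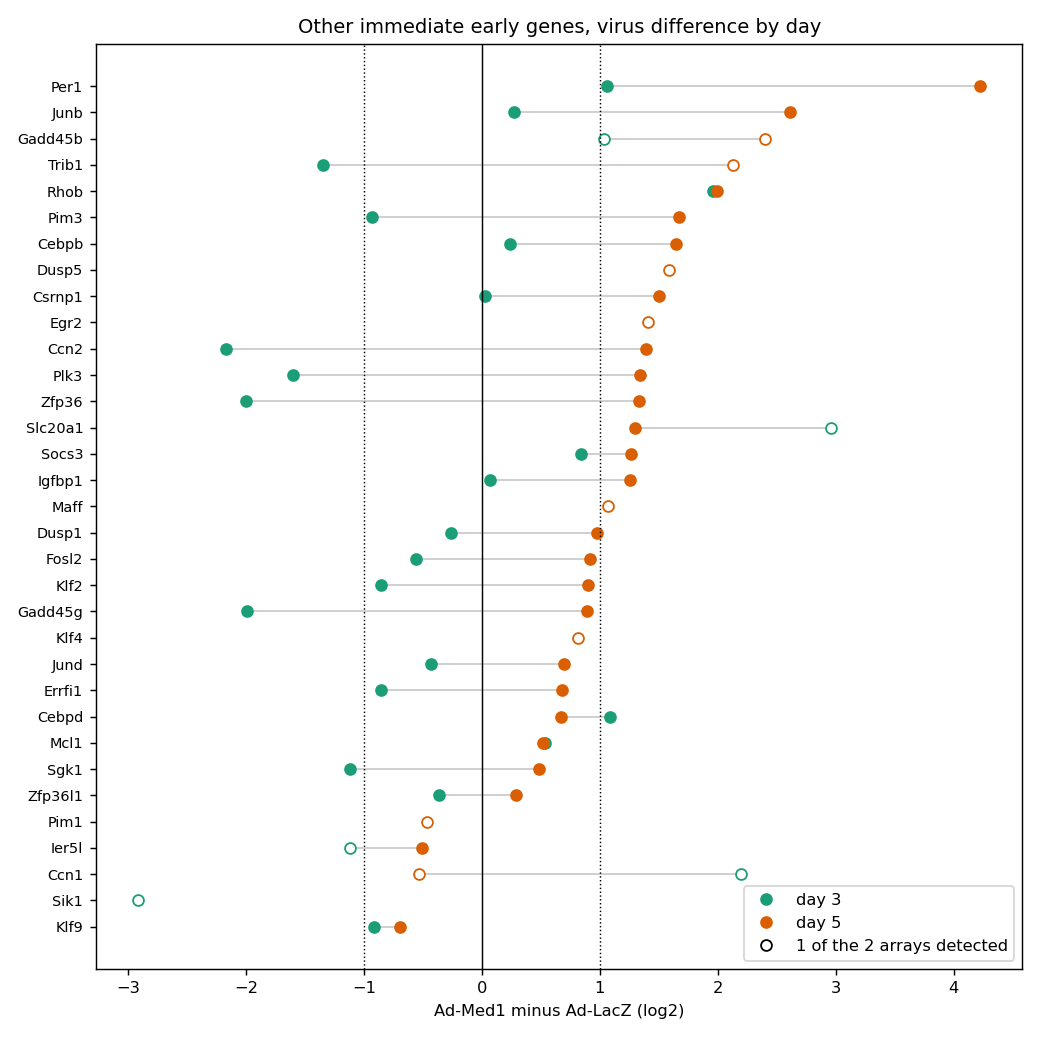
Log2 difference Ad-Med1 minus Ad-LacZ (x axis) at day 3 (green) and day 5 (orange) for the other immediate early genes assessed on at least 1 day (y axis, in order of the day 5 value), with open circles where 1 of the arrays did not detect the probe and dotted lines at 2-fold. At day 5 17 genes lie right of the 2-fold line and 0 left of it, while at day 3 the points lie on both sides.

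The AP-1 and related bZIP genes outside the set showed 0 of 10 higher and 0 lower at day 3 and 4 of 13 higher and 0 lower at day 5, of which 2 were higher with undetected signals at the floor. Junb, the AP-1 subunit that often opposes Jun, had 9.03 in Ad-Med1 and 8.76 in Ad-LacZ at day 3, and 10.16 and 7.55 at day 5. It was 1.21-fold and 6.12-fold higher, the same order of days as Jun. Batf2 was detected only in Ad-Med1 at day 5, at 6.98, at least 1.48-fold above Ad-LacZ. Crem, a CRE modulator, had differences of -0.90 and -0.16. With intensities set only against each array's median these were 0.55 and 0.83, where the median gene assessed stood at 1.0 and 0.83. Atf4, the factor of the integrated stress response, had 0.76 and -0.31, the latter 0.24 on that scale. The second detected probe of Atf4 gave 0.14 and -0.09.

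Upstream signals were assessed from lists of cytokine and MAP kinase genes. Of the priming cytokines, receptors and their NF-kappaB and STAT3 partners, 2 of 17 were higher and 4 lower at day 3, and 9 of 20 higher and 0 lower at day 5. Tnfaip3, the NF-kappaB feedback inhibitor A20, had 6.47 in Ad-Med1 at day 3 and 8.45 at day 5 and lay below detection on both Ad-LacZ arrays. At day 5 Ad-Med1 was at least 4.12-fold higher, and at day 3 the bound lay under 1. Among MAP kinase and serum response genes, 1 of 20 was higher and 2 lower at day 3, and 7 of 24 higher and 0 lower at day 5. With undetected signals at the floor, only 1 of those 24 was 2-fold higher. Map3k5, an apoptosis and stress kinase, reached 7.17 in Ad-Med1 at day 5, at least 1.70-fold above Ad-LacZ, and Dusp4, a MAP kinase phosphatase, 7.09, at least 1.60-fold above it. Map2k1, the ERK kinase MEK1, had 8.50 in Ad-Med1 at day 3 and was not detected in Ad-LacZ, a difference of at least 3.30-fold. Its Ad-LacZ signal of day 5 was 9.09, above both Ad-Med1 arrays, so that the Ad-LacZ array of day 3 stood alone. Map2k6, an activator of p38, was detected at 7.51 in Ad-LacZ at day 3 and not in Ad-Med1, which was at least 2.45-fold lower.

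The lists around Egr1 and Atf3 mix partners or activators with targets. Both had genes that were higher on each day, and only the Atf3 list at day 3 had genes that were lower. Of the Egr1 partners and targets, 2 of 4 were higher at day 3 and 3 of 5 at day 5, with 0 lower on either day. Icam1, the leukocyte adhesion molecule of that list, had 10.28 in Ad-Med1 and 8.90 in Ad-LacZ at day 3, and a difference of 1.70 (log2) at day 5, or 2.61-fold and 3.26-fold higher. Of the genes of Atf3 and stress responses, 2 of 14 were higher and 3 lower at day 3, and 5 of 14 higher and 0 lower at day 5. Hspa5, the endoplasmic reticulum chaperone BiP, had 9.74 in Ad-Med1 at day 3, at least 7.81-fold above Ad-LacZ, which did not detect it. At day 5 Hspa5 had 10.37 and 9.32, a 2.07-fold difference. The Ad-LacZ array of day 3 thus stood far below the others for Hspa5, and the Ad-LacZ signal of day 5 lay near that of Ad-Med1 at day 3. Vldlr, a lipoprotein receptor, had 9.44 and 8.11 at day 3 and 9.50 and 7.76 at day 5. Both were higher on both days, in contrast to Atf3, which was detected only at day 5.

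Although Myc itself was not detected, 10 and 11 genes of its network and 21 of its targets were assessed. In the network of MAX partners, 2 of 10 were higher and 2 lower at day 3, and 2 of 11 higher and 2 lower at day 5. The lower ones included Zbtb17, the repressor partner MIZ1, with 8.98 in Ad-Med1 and 10.18 in Ad-LacZ at day 3 and 8.49 and 9.88 at day 5, and Mxd4, an antagonist of Myc, with 11.02 and 12.17 and then 11.12 and 12.14. With intensities set only against each array's median, the differences were 0.33 and -0.06 for Zbtb17 and 0.03 and -0.16 for Mxd4. The median gene assessed was itself 1.0 and 0.83 (log2) higher on that scale, so that both genes stayed below it. Of Myc targets, 4 of 21 were higher and 4 lower at day 3, and 1 was higher and 1 lower at day 5. Ccnd2, a D-type cyclin, was lower on both days, by at least 4.42-fold at day 3, where Ad-Med1 was not detected, and by 4.67-fold at day 5, where the signals were 6.57 and 8.79. No direction common to the Myc targets was seen.

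Some of the genes around Id1 were called at day 3. Of the Id and BMP genes, 7 of 15 were higher and 0 lower at day 3, where 17.4% of genes were higher and 12% lower. At day 5, 0 were higher and 0 lower, where 10.2% of genes were higher and 7.68% lower. Bmpr1a, a BMP receptor, had 9.56 in Ad-Med1 and 7.18 in Ad-LacZ at day 3, and 9.56 and 9.08 at day 5. Smad1, which carries the BMP signal to the nucleus, had 10.71 and 8.99 at day 3 and 10.45 and 9.66 at day 5. Tcf12, a helix-loop-helix partner that Id proteins bind, had 8.22 and 6.86 and then 8.14 and 7.25. In these 3 genes, as in Id1, the Ad-LacZ array of day 3 was the lowest of the 4 and both Ad-Med1 arrays lay above both controls. Id2 had 11.58 and 9.80 at day 3 and 11.24 and 11.72 at day 5, but its other probes gave -1.04 and 3.64 at day 3, so that its direction is uncertain. With the Ad-LacZ array of day 5 as the control of day 3, 1 of the 15 was 2-fold higher, where 9.26% of all genes were. With intensities set only against each array's median, 11 were higher at day 3 and 7 at day 5. The median gene assessed was itself 1.0 and 0.83 (log2) higher on that scale.

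Of the 5 assessed antiproliferative genes related to Btg2, 2 were higher and 0 lower at day 3 and 0 at day 5. Cdkn1a, the inhibitor p21 of cyclin-dependent kinases, had 11.16 in Ad-Med1 and 9.98 in Ad-LacZ at day 3, and 11.33 and 11.06 at day 5. Btg1 had 12.26 and 11.17 at day 3 and 12.76 and 12.49 at day 5. Cnot7, a deadenylase that Btg proteins bind, had day 5 signals of 10.01 and 9.13, and Tob2 had day 3 signals of 9.05 and 9.95, both differences under 2-fold. Among Krüppel-like and Sp factors, 1 of 9 was higher and 2 lower at day 3, and 1 of 11 higher and 2 lower at day 5. Sp1 had 9.10 in Ad-Med1 at day 3, at least 5.00-fold above Ad-LacZ, which did not detect it, and 9.13 and 8.42 at day 5. The Ad-LacZ array of day 3 thus stood far below the others for Sp1. Klf3 had 6.56 and 8.64 at day 3, Klf7 8.29 and 9.37 at day 5, and Klf12 was detected only in Ad-LacZ at day 5, at 6.94.

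Markers of blood and immune cells also differed between the arrays, by list and by day. In whole liver RNA a change in the cells present and a change in RNA per cell cannot be told apart. Neutrophil markers were at least 2-fold higher after Ad-Med1 for 10 of 10 assessed at day 3 and for 8 of 10 at day 5. With undetected signals at the floor, a setting added after seeing the data, these counts were 4 and 8, since most of these markers were below detection in Ad-LacZ at day 3. Before normalisation, the neutrophil list had summed intensities of 15390 and 22782 in Ad-Med1 and of 2058 and 2685 in Ad-LacZ. These and the sums below include undetected probes. They come from arrays on which the median gene assessed was already 3.26-fold brighter after Ad-Med1 at day 3 and 2.90-fold at day 5. Macrophage markers were lower for 9 of 12 at day 3 and higher for 3 of 11 at day 5, and the Kupffer cell markers Clec4f and Vsig4 were not detected in Ad-Med1 at day 3. The summed intensities of the macrophage list were 7028 in Ad-Med1 and 7517 in Ad-LacZ at day 3, and 23734 and 4770 at day 5. Of lymphocyte markers, 6 of 9 were higher and 1 lower at day 5, with Cd3e at 8.65 in Ad-Med1 and not detected elsewhere, and 1 of 3 was lower at day 3. The summed intensities of the list were 6418 and 1940 at day 3 and 9495 and 2127 at day 5. Red cell markers were lower for 4 of 4 at day 3 and for 0 of 5 at day 5, with Hbb-bs at 10.15 in Ad-Med1 at day 3 and at 14.23 to 14.74 on the other arrays. Immediate early genes are expressed in leukocytes as well as in hepatocytes, and the part of these cells in the member values was not tested. The Ad-Med1 array of day 5, on which Fos, Jun, Egr1, Ier3 and Atf3 were highest, was also the one on which 9 lymphocyte markers were detected, against 2, 3 and 5 on the others. That array also detected the most probes of all kinds, at 15294.

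Of the other marker lists, endothelial markers were lower for 5 of 12 at day 3 and 2 of 12 at day 5, with 0 higher. Stellate cell markers were higher for 1 and lower for 3 of 11 at day 3, and higher for 1 and lower for 5 at day 5. Hepatocyte markers had 1 of 11 higher at day 3 and 1 of 11 lower at day 5. Platelet markers were higher for 3 of 3 at day 3, or 2 of 3 with undetected signals at the floor, with 1 of 3 lower at day 5, and of cholangiocyte markers none of the 2 and 1 assessed differed by 2-fold. Sex-linked transcripts were higher for 1 and lower for 2 of 3 at day 3. At day 5 they were higher for 4 of 4, or 2 of 4 with undetected signals at the floor. Xist entered the day 5 count by its brightest probe. Its other detected probes were lower in Ad-Med1 at day 5, most of them by far more than 2-fold, so that its direction at day 5 is uncertain.

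Genes with the most similar pattern were sought for the 3 members with the widest range over the 4 arrays, by the root mean square distance of mean-centred log2 signals, among 7186 genes detected on every array. Nearest to Fos were Ly6c1 at 0.121, Plac8 at 0.144 and Serpina7 at 0.178. Ly6c1 is also in the macrophage list above. Nearest to Id1 were H2ax at 0.0980, Elovl6 at 0.147 and Fen1 at 0.157, and nearest to Ier3 were Tgfb1 at 0.0472, Srebf1 at 0.0596 and Cask at 0.0680. H2ax, a histone variant, had 11.57 in Ad-Med1 and 9.21 in Ad-LacZ at day 3, and 10.44 and 9.52 at day 5, and like Id1 stood highest in Ad-Med1 at day 3. With 4 arrays, many genes can lie this close to any pattern.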

How the data were processed

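Liver RNA of 4 groups with 1 array each was analysed, grouped by the submitters' titles. The deposited table holds a linear intensity and a detection p-value for each probe, without normalisation, per the file headers. The authors' series values equal these intensities (largest difference 0). No source used here names the scanner software.

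Intensities were processed with neqc of limma 3.58.1 in R 4.3.3: background from the detection p-values, normexp with an offset of 16, quantile normalisation and log2. Gene symbols came from the platform annotation, updated through gene identifiers in the RefSeq table of GRCm38.p6, which held 34807 of them (99.8%). Of the probes, 34885 had 1 symbol, 18 several and 10378 none; only those with 1 were named. Of several probes for a gene, the brightest over the 4 arrays stood for it, and 9566 genes were detected on at least 1 array. Where the dimmer array did not detect a probe, the fold is a bound against the higher of its own signal and that array's lowest detected one, and no fold is given where that is under 1. A probe not detected on either array has no fold.

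Both days together were tested with limma's lmFit and eBayes with virus and day as terms on 16767 detected probes (1 residual degree of freedom, prior 2.95), with Benjamini-Hochberg adjustment. Its p-values measure only the spread between these samples, with no spread within a group, and the SE comes from this fit. The fit was tested on simulated data. The number of arrays limits the precision. Python 3.11.15, numpy 2.4.6, pandas 2.3.3 and matplotlib 3.10.9 were also used.

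The members, the 11 related lists and the 10 marker lists were chosen with earlier results of these data known. All members are named with every probe. Of a related list, genes at least 2-fold different in one direction on both days are named, at most 4 by the smaller size, and otherwise the 2 with the largest size at each day. Alternatives covered background correction, normalisation, the detection threshold, undetected signals, the control array, the probe of a gene and the filters and arrays of the fit.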

Additional observations from a re-analysis of the deposited data

Results flagged for a closer look

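Jun drew attention because its single array pair at day 3 and that at day 5 lay in opposite directions. The log2 difference Ad-Med1 minus Ad-LacZ was -0.20 at day 3 and 1.19 at day 5. With 1 array per group this difference between the days was not tested. It was 0.82 and 1.47 with the intensities set only against each array's median, a scale on which most genes were higher after Ad-Med1.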

How the results depend on the processing

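With 1 array per group, each value rests on single libraries, and detection limits Atf3, Fos at day 3 and the undetected Ier2, Btg2 and Myc. Of the other values of single members, 283 kept their call or moved by less than the fit's SE and 34 moved further.

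Setting intensities only against each array's median gave 4 members higher at day 3 (1 in the processing reported), 68 related genes higher (29) and 3 lower (25) at day 3, 82 higher (44) and 0 lower (5) at day 5, and 7819 probes called by limma (0). In that limma fit Klf6 turned to 1.08, with an adjusted p of 0.0269 (range over its settings 0.027 to 0.97), and 5 other members passed. The median gene shifts on that scale, by 1.0 and 0.83. Less this shift, an alternative added after seeing the data, 1 member was higher at day 5 (5). Without background correction, 1 member was higher at day 5 (5) and 0 between the days of Ad-Med1 (1). The mean over detected probes gave 1 member, Klf6, higher at day 5 within Ad-LacZ (0). With the control of the other day, related genes numbered 14 higher and 6 lower at day 3 and 18 lower at day 5. Atf3 at day 5 turned to -0.025 with undetected signals at the lowest detected. Leaving out each array in turn, in a limma fit without the day term, gave 0 to 1616 called probes, the latter without the Ad-LacZ array of day 5, and no member passed in these fits. The cause of these shifts was not tested where no value is given. The limma fit reported sets the arrays of each day against each other through its day term, and without that term it also called 0 probes, with 3181 at an unadjusted p under 0.05. No paired analysis by replicate was possible because each group had 1 array.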

Other observations

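Further genes of the lists, picked after their values were seen, had the following signals. Id3, a close relative of Id1, had 9.24 in Ad-Med1 and 7.78 in Ad-LacZ at day 3, and 9.0 and 8.61 at day 5. Hamp, the iron hormone hepcidin and a BMP target of hepatocytes, had 14.94 and 13.85 at day 3, and 14.54 and 14.44 at day 5. Both, like Id1, stood lowest in Ad-LacZ and highest in Ad-Med1 at day 3. Socs3, the feedback inhibitor of interleukin 6 signalling, had 9.44 and 8.60 at day 3 and 10.23 and 8.96 at day 5, with both Ad-Med1 arrays above both controls. Gadd45g had 11.36 and 13.36 at day 3 and 12.20 and 11.31 at day 5, and Trib1 had 6.90 and 8.25 at day 3 and 7.14 in Ad-Med1 at day 5, at least 1.65-fold above Ad-LacZ. Both were lower after Ad-Med1 at day 3 and higher at day 5, as were Zfp36, Ccn2 and Plk3. With intensities set only against each array's median Trib1 stood at 0.12 at day 3, where the median gene assessed stood at 1.0.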
